A study of Caenorhabditis elegans with 2 samples.

Results

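The genes described are those that encode named subunits of the general transcription machinery of Caenorhabditis elegans: 17 taf genes, for the TATA-binding protein-associated factors of TFIID, 20 mdt genes, for Mediator, 11 rpb genes, for RNA polymerase II, and 4 rpc genes, for RNA polymerase III. They are all protein-coding genes with a taf, mdt, rpb or rpc name and number in the annotation, 52 of 19973 genes, and no binding value was used to choose them. Their promoters were read in chromatin immunoprecipitation followed by sequencing (ChIP-seq) of MEC-3, a LIM homeodomain transcription factor known for specifying the touch receptor neurons. Both samples are biological replicates of 1 group, late embryos of hermaphrodite worms of strain OP55, genotype unc-119(ed3) III; wgIs55, collected 4 h after egg bleaching, and all animals carry the transgene for MEC-3 with GFP and FLAG at its C terminus. An antibody against GFP was used. Whole animals were taken, so a region cannot be assigned to a cell type, and the embryos' stage and cells could not be checked against marker genes in data that hold no expression. No sample without the tagged protein was used here.

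TFIID recognises core promoters and nucleates the assembly of the preinitiation complex. Mediator is a large modular complex that carries signals from sequence-specific activators to RNA polymerase II, which transcribes all protein-coding genes, while RNA polymerase III makes tRNAs and other small RNAs. These complexes act in every cell type, unlike the few neurons in which MEC-3 is known to act.

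A gene's promoter window ran from 1000 bp upstream to 500 bp downstream of any annotated transcript 5′ end, and a region counted when its summit fell inside. The authors' pooled candidate list, made from both replicates together, holds 27953 regions with signal values from 21.8 to 722 and a median of 30.3. Their final list of reproducible peaks holds 457 of high signal, the lowest at 77.4. Replicate 1 gave 30000 candidate regions (median signal 16.9, maximum 278) and replicate 2 gave 22464 (median signal 18.6, maximum 438). Signal values were compared only within a list, and ranks count from 1 for the strongest region. Read depth is unknown, and so no value carries a counting error.

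The sequences around the strongest regions are shown first. They belong to the 4 members of highest pooled signal and are given 5′ to 3′ on the gene's own strand of the WBcel235 (ce11) assembly, from its RefSeq copy. Each covers up to 100 bp on both sides of the summit and stops at an untranslated exon. The mdt-8 sequence is II:11534665-11534865 on the minus strand, that of taf-12 is III:11870139-11870339 on the minus strand, that of taf-7.2 is III:12673515-12673676 on the minus strand, and that of mdt-22 is II:10301055-10301215 on the plus strand. Capitals mark full copies of CCCCTTTT in mdt-8 and an unbroken GAGAGA run in taf-12; the others have no capitals.
mdt-8: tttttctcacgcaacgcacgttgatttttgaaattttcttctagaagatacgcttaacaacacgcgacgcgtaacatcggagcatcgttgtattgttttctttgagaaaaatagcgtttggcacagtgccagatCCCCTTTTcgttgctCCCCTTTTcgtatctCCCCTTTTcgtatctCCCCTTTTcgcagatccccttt
taf-12: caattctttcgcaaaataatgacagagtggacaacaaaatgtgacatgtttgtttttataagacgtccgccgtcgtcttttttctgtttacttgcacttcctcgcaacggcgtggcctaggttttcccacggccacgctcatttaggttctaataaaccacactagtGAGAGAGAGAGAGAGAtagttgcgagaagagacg
taf-7.2: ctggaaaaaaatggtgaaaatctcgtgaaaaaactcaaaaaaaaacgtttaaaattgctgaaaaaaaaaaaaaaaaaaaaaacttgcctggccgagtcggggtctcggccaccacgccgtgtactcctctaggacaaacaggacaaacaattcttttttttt
mdt-22: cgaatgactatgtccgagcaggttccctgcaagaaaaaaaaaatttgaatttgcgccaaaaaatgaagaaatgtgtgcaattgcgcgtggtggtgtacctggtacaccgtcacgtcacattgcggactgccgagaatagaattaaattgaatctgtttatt
The mdt-8 sequence carries CCCCTTTT 4 times in a tandem array. Of its 178 words of 24 bases, 163 (91.6%) occur more than once in the genome, with a median of 25 copies and a maximum of 103. A repeated word from it lies within 100 bp of the summit in 49 other pooled candidate regions, of which 19 are final peaks. In the other 24 members with a region, at most 6.18% of the words were repeated, and in 18 members none were.

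A pooled candidate region lay in the promoter window of 25 of the 52 members, which is 48.1% (exact 95% interval 34.0% to 62.4%), against 41.2% of all protein-coding genes. A final peak lay there in 3 members, mdt-8, taf-12 and taf-7.2, which is 5.77% (1.21% to 15.9%), against 1.66% of all genes and 4.02% of genes with a candidate region. The members' highest regions had a median signal of 33.6, against 32.5 over all genes with a region, and 15 of the 25 lay above that all-gene median. Both all-gene shares lie inside the members' intervals. Of the 52 members, 27 had no pooled region and 18 (34.6%) had none in the pooled or either replicate list, against 43.5% of all genes.

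**Figure D1:**
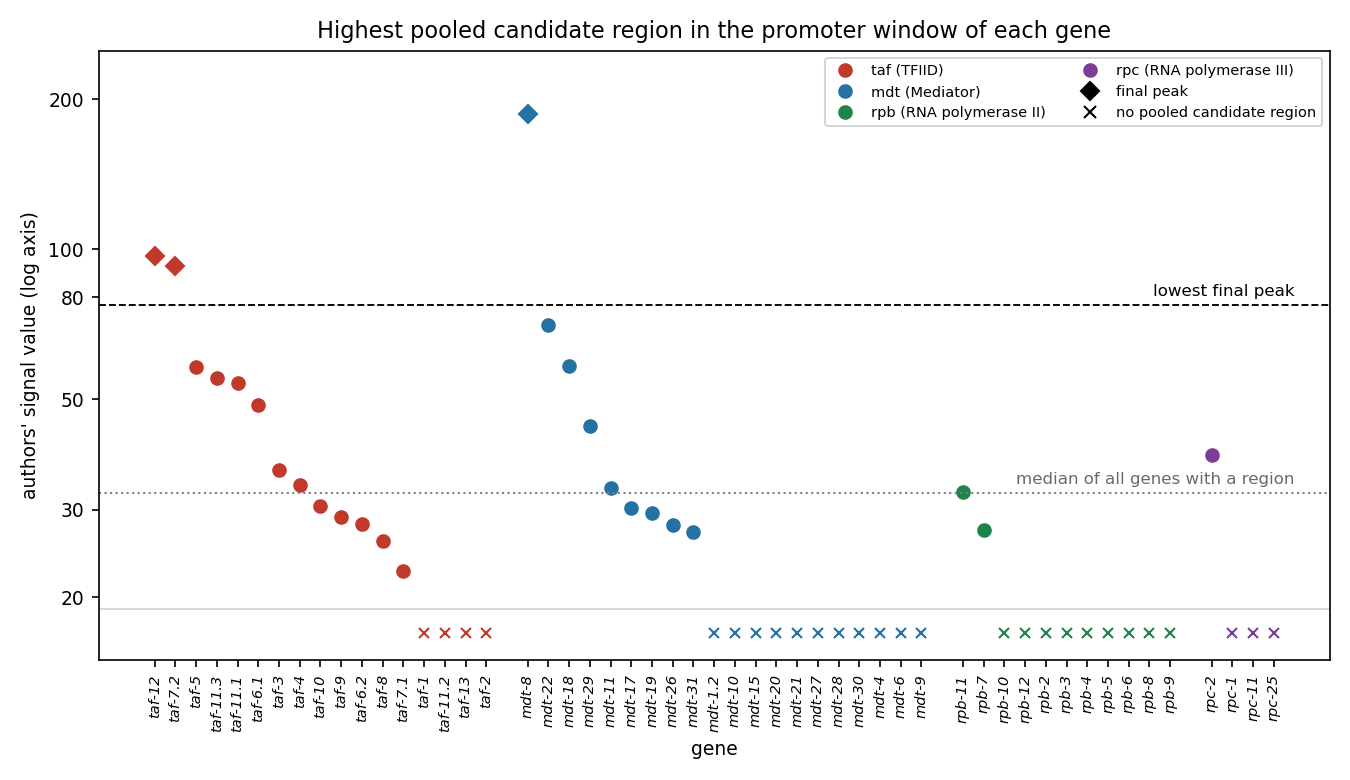
Signal value of the highest pooled candidate region (vertical, log axis) for each of the 52 genes (horizontal), coloured by family, with diamonds for final peaks and crosses for genes without a region. Only mdt-8 (186), taf-12 (96.9) and taf-7.2 (92.5) lie above the lowest final peak (77.4), and most others lie near the median over all genes (32.5).

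The counts of members with a region differed between families in the window used. Among taf genes 13 of 17 had one, which is 76.5% (50.1% to 93.2%). Among mdt genes 9 of 20 had one, which is 45% (23.1% to 68.5%). Among rpb genes 2 of 11 had one, which is 18.2% (2.28% to 51.8%), and among rpc genes 1 of 4, which is 25% (0.631% to 80.6%). The taf interval lies above the all-gene share and the intervals of the other families hold it, but the families were chosen with earlier results known, so the difference was not tested. It depended on the window: with 2000 bp upstream in place of 1000 bp, 13 of 17 taf, 14 of 20 mdt (70%), 7 of 11 rpb (63.6%) and 1 of 4 rpc genes had a region, against 54.0% of all genes, a share that the taf interval then holds. The order taf, mdt and then the polymerase subunits also held in the replicate lists, where 12 and 14 taf genes, 10 and 12 mdt genes, 4 and 4 rpb genes and 0 and 1 rpc genes had a region in replicates 1 and 2. Over all genes the shares were 42.6% and 35.7%. Among genes with a single annotated 5′ end, which have equal windows, 7 of 11 taf, 4 of 12 mdt, 2 of 10 rpb and 1 of 3 rpc genes had a pooled region, against 35.9% of all such genes.

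**Figure D2:**
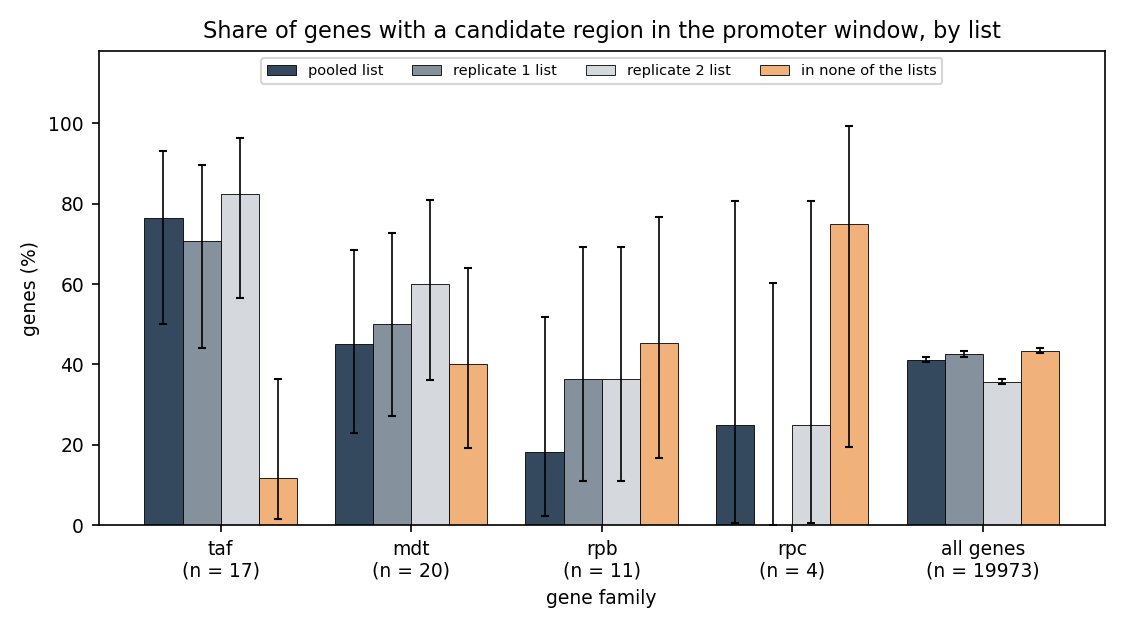
Percentage of genes (vertical) with a candidate region in the pooled, replicate 1 or replicate 2 list, or in none of them, for each family and for all genes, with exact 95% intervals. The taf bars are highest in each list (76.5% in the pooled list) and the rpb and rpc intervals are wide, with 11 and 4 genes.

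TFIID subunits held 2 of the 3 final peaks. The gene taf-12 encodes a histone-fold subunit, and its peak at III:11870017-11870460 had a pooled signal of 96.9 (rank 178), with 33.6 (rank 1320) in replicate 1 and 62.7 (rank 134) in replicate 2. Its summit lay 958 bp upstream of the gene, outside protein-coding genes and in no other gene's window. The peak of taf-7.2, a paralog for the subunit that binds and restrains the largest TFIID subunit in human cells, lay at III:12673393-12673836 with a pooled signal of 92.5 (rank 217), 40.05 (rank 531) in replicate 1 and 53.9 (rank 207) in replicate 2. Its summit was 192 bp upstream of taf-7.2 and 62 bp upstream of the divergent gene elpc-2. Both peaks therefore ranked higher in replicate 2 than in replicate 1, and neither was among the 457 strongest regions of replicate 1.

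The next TFIID genes were well below the final peaks. The gene taf-5, for a WD-repeat scaffold subunit, had 58.1 in the pooled list (rank 1570), 24.9 in replicate 1 (rank 4636) and 33.3 in replicate 2 (rank 1281). Its summit lay 21 bp inside the gene and 7 bp inside F30F8.5. The lowest taf gene with a region was taf-7.1, at 22.6 and rank 26207, near the bottom of the pooled list.

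Paralogs of a subunit differed. Of the taf-11 genes, for a histone-fold subunit, taf-11.3 had 55.2 in the pooled list (rank 1949), with 23.7 and 32.9 in replicates 1 and 2, and its summit lay 371 bp inside the gene in coding sequence. The X-linked taf-11.1 was close to it, at 53.8 (rank 2142), with 22.1 and 30.4 in the replicates and the summit 73 bp inside the coding gene, while taf-11.2 had no region in any list. Of the taf-6 genes, for the histone-fold partner of taf-9, taf-6.1 had 48.7 (rank 3113), with 29.5 and 24.1 in the replicates, at an internal 5′ end and with 6 regions over its several windows. Its paralog taf-6.2 had 28.1, from replicate 2 only (16.8). The windows were unequal, with 5478 bp over 5 annotated 5′ ends for taf-6.1 and 1501 bp for taf-6.2. Read only at the most upstream 5′ end, taf-6.1 had 21.98, below taf-6.2. The order of this pair therefore depended on the 5′ ends used. The taf-7 pair spanned the widest range, from 92.5 for taf-7.2 to 22.6 for taf-7.1. The pooled region of taf-7.1 overlapped a replicate 1 region of 16.4. No replicate 2 region overlapped it, and replicate 2 had only 15.9 elsewhere in the window.

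The histone-fold subunits, which pair with each other in the yeast and human complexes, were grouped by that known structure after the values were seen. A region lay in the window of 10 of these 12 genes, with a median of 34.8, and of 3 of the 5 other taf genes, beside 41.2% of all genes. Some partners had like values and others did not. The gene taf-12 had 96.9 and its partner taf-4 had 33.6, while taf-11.1 and taf-11.3 had 53.8 and 55.2 and their partner taf-13 had no region in any list. The gene taf-10 had 30.6 and its partner taf-3 had 36.0, the latter in coding sequence at an internal 5′ end far from the start of the gene. The gene taf-9 had 29.0, close to taf-6.2 (28.1) and below taf-6.1 (48.7). It was above taf-6.1 when that gene was read only at its most upstream 5′ end. Of the large subunits taf-1 and taf-2, neither had a pooled region and both had a replicate 2 region at rank 19861 and 19479.

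Mediator had the strongest region of all members. The peak near mdt-8, for a head-module subunit, lay at II:11534543-11534986 with a pooled signal of 186 (rank 19), 81.5 in replicate 1 (rank 21) and 104 in replicate 2 (rank 25). It was the only member among the 457 strongest regions of both replicates. Its summit lay 949 bp upstream of mdt-8 but 286 bp upstream of Y62F5A.12, the gene directly ahead on the same strand, and it falls on the repeated sequence shown above. The part of the repeats in its signal was not tested. The next region in the mdt-8 window had a signal of 23.7, at rank 23967.

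The replicates disagreed on the next Mediator genes. For mdt-22, also a head subunit, the pooled signal was 70.4 (rank 701), under the lowest final peak, with 43.2 in replicate 1 (rank 362) and 27.7 in replicate 2 (rank 2757). Its summit lay 61 bp upstream of the gene, in an intron of clpp-1. The head gene mdt-18 had a pooled signal of 58.4 (rank 1528) and 48.1 in replicate 2 (rank 299), whereas replicate 1 had no region overlapping it and only 12.7 (rank 26864) elsewhere in the window. So mdt-22 was among the 457 strongest regions of replicate 1 alone and mdt-18 among those of replicate 2 alone. The tail gene mdt-29 had 44.2 in the pooled list (rank 4412), with 21.9 and 19.7 in the replicates and its summit 2 bp inside the gene. The head genes mdt-11 and mdt-17 had 33.1 and 30.2, with summits 676 and 396 bp upstream in the coding sequence of wip-1 and prmt-1. The lowest was mdt-31, for a middle-module subunit, at 27.1, in an intron of snpc-4.

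By the module of the yeast complex, a grouping also made after the values were seen, 5 of 7 head genes had a region, with a median of 58.4, as did 2 of 7 middle genes (29.5 for mdt-19 and 27.1 for mdt-31) and 1 of 3 tail genes, beside 41.2% of all genes. The head median is the value of mdt-18, whose region lies at an internal 5′ end. With so few genes a module, no difference between modules is read from these counts. Members without a pooled region included mdt-15, the tail subunit known in worms for fat metabolism, which had none in any list. Its nearest pooled summit was 1072 bp away, with a signal of 64.9. The middle gene mdt-9 was a near miss, with 23.2 in replicate 1 (rank 5934), 28.8 in replicate 2 (rank 2334) and a pooled summit 507 bp from its 5′ end. The other mdt genes with no pooled region were mdt-1.2, mdt-4, mdt-6, mdt-10, mdt-20, mdt-21, mdt-27, mdt-28 and mdt-30.

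Final peaks also lay inside 2 mdt genes beyond the promoter window, as they did in 0.721% of all genes. In mdt-4 the peak at II:4942344-4942787 had a signal of 95.01 (rank 196) and lay in an intron 1383 bp downstream of the nearest 5′ end. In mdt-26 the peak at II:5661702-5662145 had 89.9 (rank 241) and lay in an intron 743 bp downstream. These are of the size of the taf-12 and taf-7.2 peaks, and were named after their values were seen. Counting them, 5 of the 52 genes (9.62%) had a final peak in the window or the gene, against 2.38% of all genes.

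Of the 15 rpb and rpc genes, 3 had a pooled region (20%), against 41.2% of all genes, and none had a final peak. The median signal of those regions was 32.5, as over all genes with a region. The gene rpb-11, for an assembly-platform subunit, had 32.5 in the pooled list (rank 11482), with 20.6 (rank 8761) and 15.3 (rank 18417) in the replicates, and its summit lay 115 bp upstream. The gene rpb-7, for a stalk subunit, had 27.3 (rank 17891), in its own intron 262 bp from its 5′ end, and the window of Y54E10BR.2 held the same summit. None of the 5 genes for the subunits that all nuclear RNA polymerases share (rpb-5, rpb-6, rpb-8, rpb-10 and rpb-12) had a pooled region, and neither did rpb-2, rpb-3, rpb-4 or rpb-9. In single replicates rpb-10 and rpb-4 had regions of rank 18728 and 24346 in replicate 1, and rpb-12 and rpb-3 of rank 19579 and 12288 in replicate 2, all weak.

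Of the RNA polymerase III genes, rpc-2, for the second-largest subunit, had a pooled signal of 38.7 (rank 6862) and 23.2 in replicate 2 (rank 5451), with no region in replicate 1. The summit lay 506 bp upstream, in an intron of hach-1. The genes rpc-1, for the largest subunit, rpc-11 and rpc-25 had no region in any list. No member's highest pooled region had its summit within 500 bp of a gene for a tRNA, rRNA, snRNA or snoRNA. The share over all pooled regions was not counted, so nothing particular to the members is read from this.

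Over all members with a region, the pooled regions overlapped a region of both replicates in 15, of replicate 1 alone in 5 and of replicate 2 alone in 5. Summits lay within 100 bp of the pooled summit in both replicates in 9. These overlaps were not counted over all pooled regions, so they do not set the members apart. Across the 23 members with a window region in both replicates the signals had a Spearman rho of 0.74, as a description; the points share 2 libraries. Among the 457 strongest regions were 2 members in replicate 1 (mdt-8 and mdt-22) and 4 in replicate 2 (mdt-8, taf-12, taf-7.2 and mdt-18), which is 3.85% and 7.69%, against 1.34% and 1.97% of all genes.

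**Figure D3:**
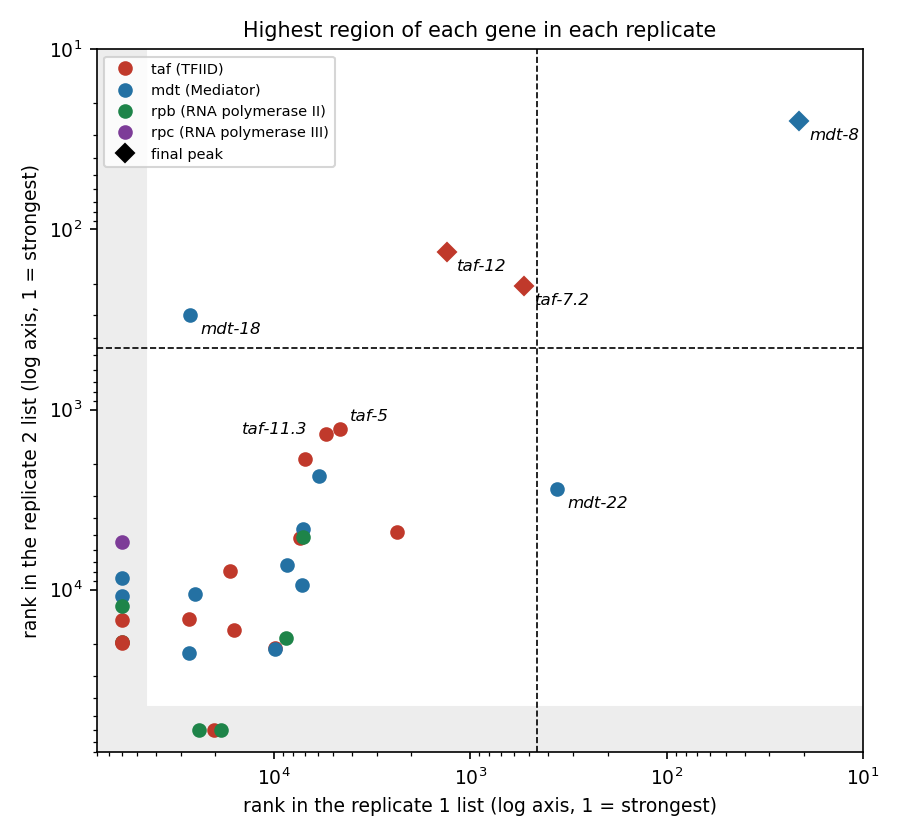
Rank of each member's highest window region in the replicate 1 list (horizontal) and the replicate 2 list (vertical), on log axes with the strongest at the right and top; points in the grey bands have no region in that replicate, and dashed lines mark rank 457. Only mdt-8 passes both lines, while taf-12, taf-7.2 and mdt-18 pass only the replicate 2 line and mdt-22 only the replicate 1 line.

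Relative to the closest annotated 5′ end of the gene, 15 summits lay upstream and 10 at or downstream of it, with a median of 117 bp upstream. That 5′ end can be internal. The mdt-18 summit, which gives the median, counts as upstream but lies inside mdt-18. The summits fell in coding sequence in 10 members, outside protein-coding genes in 9, in introns in 4 and in untranslated exons in 2. The window of another gene held the same summit in 11 members, and in 6 another gene's 5′ end was nearer. This applies to the peaks of mdt-8 and taf-7.2, so taf-12 was the only member with a final peak when each peak was given to the nearest gene. With a window of 500 bp upstream, taf-7.2 was the only one. The counts of summit positions and shared windows were not made over all pooled regions, so no trait of the members is read from them.

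**Figure D4:**
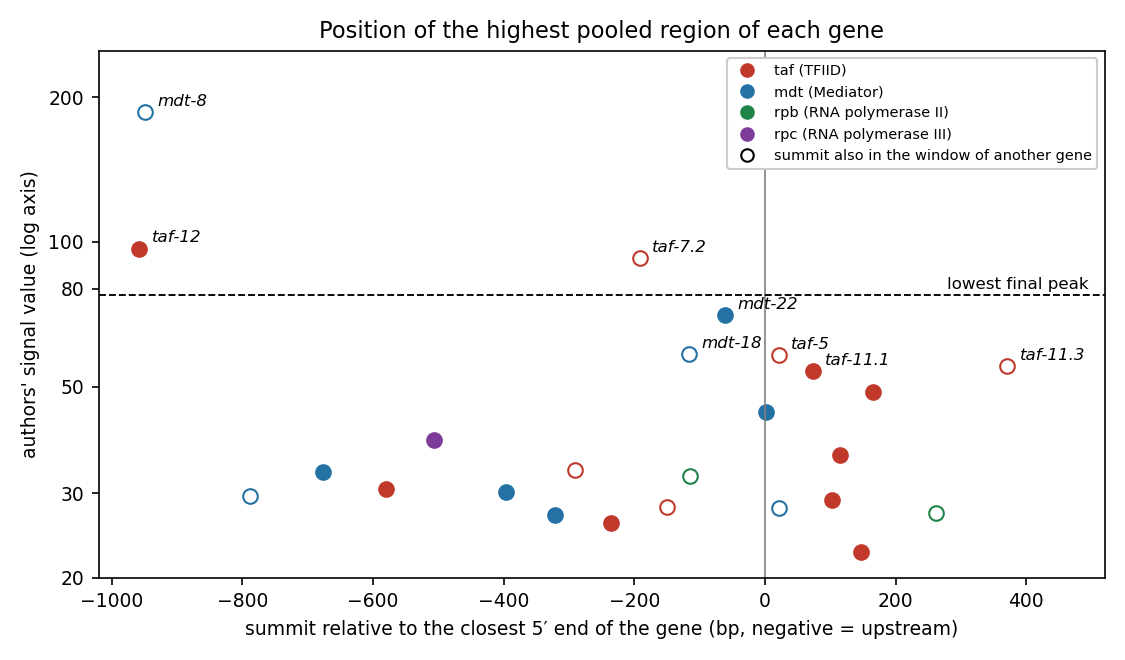
Distance of the summit from the closest 5′ end of the gene (horizontal, bp, negative upstream) against the signal value (vertical, log axis) for the 25 members with a pooled region; open circles mark summits that another gene's window also holds. The mdt-8 and taf-12 peaks lie at the upstream edge of the window, at 949 and 958 bp, and the taf-7.2 peak 192 bp upstream.

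Many of these genes sit close behind another gene. For 23 of the 52 members (44.2%) a same-strand gene ended within 500 bp upstream or overlapped the member, against 20.6% of all genes. In worms, closely spaced genes of 1 strand are often transcribed together from the promoter of the first. The annotation used lists no such groups, so distance was used alone. Of these 23 members 8 had a region (34.8%), against 40.8% of all genes so placed. Of the 13 with a divergent or overlapping opposite-strand gene within 1000 bp, 9 had one (69.2%), against 49.3%. Of the other 16, 8 had one (50%), against 38.3%. For mdt-22 and mdt-18 the opposite-strand gene, clpp-1 and uri-1, overlapped the member. Of the mdt genes, 13 of 20 lay behind a same-strand gene and 5 of these had a region, whereas for taf genes the numbers were 4 and 2.

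**Figure D5:**
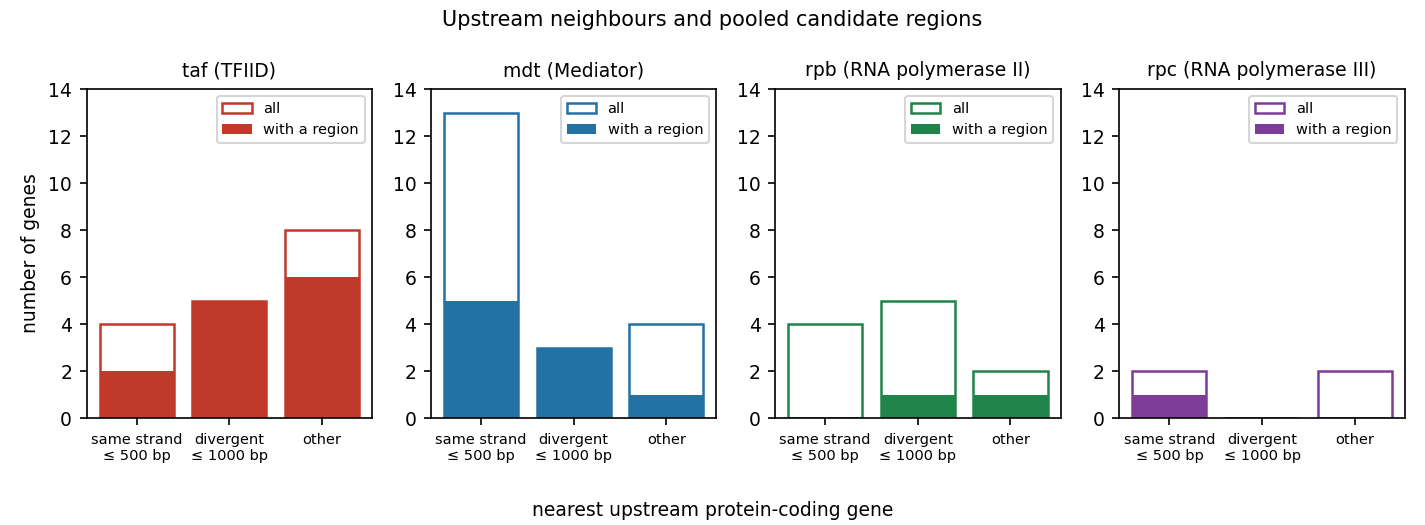
Number of genes (vertical) in each family by the kind of nearest upstream gene (horizontal), with filled bars for those with a pooled candidate region. All 5 taf and all 3 mdt genes in the divergent class had a region, while 5 of 13 mdt genes in the same-strand class had one. Both classes include overlapping genes, and mdt-22 and mdt-18 overlapped the opposite-strand gene.

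Read at the first gene of the run of closely spaced genes, 13 of the 23 had a region (56.5%), against 48.3% of all genes so placed, and 2 had a final peak (8.70%), against 3.31%. These were Y62F5A.12 ahead of mdt-8, with the same peak, and hach-1 ahead of rpc-2. The hach-1 peak had a signal of 77.8 (rank 448), near the lower end of the final list, with rank 4733 in replicate 1 and rank 225 in replicate 2, and hach-1 ends 46 bp from rpc-2. Ahead of mdt-10, which had no region of its own, the first gene cec-3 had 68.1 (rank 803). The rpc-25 gene lies 113 bp behind its same-strand neighbour tftc-3, for a subunit of the RNA polymerase III factor TFIIIC, and neither had a pooled region.

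By chromosome, 8 of 13 members on III, 6 of 11 on II, 5 of 10 on I, 3 of 4 on X, 2 of 7 on V and 1 of 7 on IV had a region, against 48.8%, 43.5%, 49.2%, 40.4%, 33.3% and 38.3% of all genes there. Chromosome III held 2 of the 3 final peaks and also the most members. The share of all final peaks on it was not counted, so nothing is read from this.

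Motifs were counted at the summits of the 25 members, too few to tell their shares from those of all pooled regions. The GAGAGA motif lay within 100 bp of the summit in 5 of the 25 members (taf-12, taf-5, taf-10, mdt-19 and taf-8), which is 20%, against 15.7% of all pooled candidate regions and 26.5% of final peaks; the taf-12 sequence holds 6 overlapping matches. TAATTA and CACGTG each occurred in 1 member, mdt-29 for both, against 6.18% and 4.61% of the regions. AATGCAT, TGACGTCA and ATGCAAAT occurred in none, against 2.54%, 1.29% and 1.499%. Both strands were searched. The members' median GC content was 41.8%, against 42.3% for all pooled regions and 48.3% for final peaks.

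The other general transcription genes, whose names follow other schemes, were read from a list of 70 symbols, of which 62 matched a gene. A pooled region lay in the window of 35 of them (56.5%), against 41.2% of all genes, with a median signal of 33.6, the same as for the members to that precision. General factors, including TFIIB and TFIIH, had one in 9 of 18 genes, elongation factors in 12 of 15, RNA polymerase I in 4 of 6 and RNA polymerase III factors in 4 of 11. Of the remaining lists, Mediator subunits under other names had one in 3 of 7 genes and coactivators in 2 of 4, and the largest RNA polymerase II subunit, ama-1, had one of 24.5. The only final peak, in 1 of the 62 genes against 1.66% of all genes, was near ttb-1, for TFIIB, at V:156017-156460, 580 bp upstream, with a pooled signal of 77.6 (rank 454). Its rank was 8707 in replicate 1 (20.7) and 188 in replicate 2 (55.9). The same split was seen for rpoa-12, for an RNA polymerase I subunit, at 68.0 in the pooled list with rank 8692 in replicate 1 and 240 in replicate 2. The elongation kinase gene cdk-9 had 67.2, with rank 10986 and 328. These 3 of the 62 genes were among the 457 strongest regions of replicate 2, as were 1.97% of all genes. Of the 62 genes 0 were among those of replicate 1, against 1.34% of all genes. Neither the TATA-binding protein gene tbp-1 nor the RNA polymerase III factor gene brf-1 had a region in any list.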

How the data were processed

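MEC-3 ChIP-seq of 2 biological replicates was read from region lists, not reads. Per the deposited file list, the authors made a candidate list for each replicate, a pooled candidate list and a final list by the irreproducible discovery rate (IDR). Each region carries a signal value, deposited by the authors on a scale not given in the sources used here, and the −log10 of a q-value, deposited by the authors and not tested further. Of the aligner, peak caller, IDR threshold and depth nothing is stated in those sources. The labels' antibody field names mec-3 and their description an antibody against GFP.

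The gene models were those of Ensembl release 115 for WBcel235, which ce11 names, with protein-coding transcripts only. Sequence came from the RefSeq copy of that assembly, and coordinates are 1-based. Replicate support was any overlap of at least 1 bp. Shares carry exact Clopper-Pearson 95% intervals, which treat genes as independent although neighbours can share a region. With 1 group there is no contrast, so no test was made. The members and lists were chosen with earlier results of these data known. Genes named with values are the members with a final peak, the 6 highest and the lowest of each family, paralogs of 1 subunit, and, of the other list, those with a final peak and the 3 highest; partners, module groupings, peaks inside genes and remaining names were chosen after values were seen. The symbols that matched no gene (8 of 70) are not analysed here. Scripts used Python 3.11.15, pandas 2.3.3 and SciPy 1.17.1, and the assignment of regions to genes was tested on simulated data.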

Additional observations from a re-analysis of the deposited data

How the results depend on the processing

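Of 108 alternative values for the main results, 87 stayed within 1.5 times the reported count (for the median signal, its ratio to all genes within the spread between replicates) and 21 moved further. The 87 include the rpb and rpc final-peak counts, which were 0 under every setting. Values for a family and for all members rest on the same genes, so the 108 are not independent. Members with a final peak fell from 3 to 1 with a window of 500 bp upstream (taf-7.2) and to 1 when a peak went only to the nearest gene (taf-12); for taf genes the count was 1 under both settings and for mdt genes 0 under both. No final list of a single replicate was available. With a replicate left out, the 457 strongest regions of the other were counted in place of final peaks. These counts repeat those given in the Results and are not a like measure. They gave 2 to 4 members (mdt-8 in both), 0 to 2 taf genes and 2 mdt genes either way. The mdt genes were mdt-8 and mdt-22 from replicate 1, and mdt-8 and mdt-18 from replicate 2. With a window of 2000 bp upstream, members with a candidate region rose from 25 to 35, mdt genes from 9 to 14 and rpb genes from 2 to 7, while taf genes stayed at 13 and all genes rose to 54.0%. The rpb count was 4 without either replicate, and the rpc count was 0 to 1 over those and 0 with the 500 bp window. Regions backed by both replicates fell from 15 to 9 with summits within 100 bp. The other machinery list went from 1 final peak to 0 with the 500 bp window. It also had 0 among the final peaks above their median signal. Among the 457 strongest regions of a single replicate it had 0 to 3 genes (cdk-9, rpoa-12 and ttb-1 without replicate 1). The members' median signal was 20.8 to 21.3 in the replicate lists, whose scale differs, against 19.8 and 18.1 over all genes. Over all alternatives 20 to 35 members had a candidate region. Chosen after seeing the data, leaving out peaks on more than 50% repeated words left taf-12 and taf-7.2 (2 members); the ce10 final list, of 422 peaks, held the peaks of mdt-8, taf-12 and taf-7.2 and not that of ttb-1. No paired analysis was possible because there is 1 group, with no second group to pair.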
